A study of Mus musculus with 13 samples.

Results

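Mouse cells that had been treated with a mix of small molecules, and that had not switched on an Oct4-GFP reporter, were set against embryonic stem cells (ESC) to ask what still separated treated cells from pluripotent ones. The treated cells (GFP-negative cells, 2 libraries) came from C57xICR mouse embryonic fibroblasts (MEF) under the treatment coded VC6TF, and were picked for RNA isolation as Oct4-GFP-negative. ESC (replicates 1 and 2) were untreated cells of the R1 line, strain 129, kept on MEF feeders inactivated with mitomycin C. These 4 libraries were 4 of the 13 in the series. They were compared over all 15176 genes with a unique symbol, 6593 of which (43.4%) reached 1 RPKM in at least 2 of the 4 libraries and were tested. A further ESC library (replicate 3, also R1) from another set of libraries served only as a check, and untreated C57xICR MEF (replicates 1 and 2) are given beside some values as the cells of origin. The labels do not give the days of treatment, the doses, or whether libraries of a group came from separate cultures, so p-values measure only the spread between these libraries, which may be technical. Treatment, strain, culture medium and feeder layer all changed together between the groups and cannot be told apart.

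The labels give the mix only as a code. In the published protocol of that name the letters stand for valproic acid, a histone deacetylase inhibitor, an inhibitor of the kinase GSK3, an inhibitor of the TGF-beta receptor, tranylcypromine, which inhibits the histone demethylase Kdm1a, and forskolin, which raises cAMP. Mouse ESC are held in a pluripotent state by a network of transcription factors around Oct4 (the protein of Pou5f1), Sox2 and Nanog, in which each factor keeps the others active. Fibroblasts lack this network and express instead matrix genes and mesenchymal transcription factors such as Twist1 and Prrx1. Reprogramming therefore needs both the loss of the fibroblast programme and the start of the pluripotency network, along with a change from mesenchymal to epithelial cells.

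All values are RPKM, reads scaled to gene length and to library depth, and in these libraries the length is that of the whole gene span, introns included. A long gene therefore has a lower value than a short one with the same number of transcripts, and levels are compared between libraries, not between genes. Estimated depths were 11.0 and 10.3 M reads in GFP-negative cells and 13.2 and 12.1 M reads in ESC. Both GFP-negative libraries held more genes listed at exactly 0 (2430 and 1644, against 977 and 1088 in ESC) and fewer genes at 1 RPKM or more (4770 and 5496, against 5941 and 5893). GFP-negative replicates also differed more from each other than ESC replicates did: 2018 of the tested genes (30.6%) differed at least 2-fold on the log2(RPKM + 1) scale between both GFP-negative libraries, against 542 (8.22%) between ESC replicates 1 and 2. Errors below are standard errors (SE) of log2 differences of RPKM + 1 from limma, given as GFP-negative minus ESC.

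The labels matched the markers of each group. Pou5f1 was at 0.191 and 0.429 RPKM in GFP-negative cells, against 86.1 and 95.6 RPKM in ESC, and it stood at 0 in both MEF libraries. Because the cells had been picked for the absence of an Oct4 reporter, this value checks the labels and is not a finding. Thy1, a surface protein of fibroblasts, was at 106 and 127 RPKM in GFP-negative cells and at 2.60 and 2.08 RPKM in ESC. Spp1, which encodes the secreted protein osteopontin, was at 455 and 389 RPKM in GFP-negative cells and at 8.57 and 15 RPKM in ESC. None of the 3 genes had overlapping groups.

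Of the 6593 genes tested, 1493 (22.6%) differed at an adjusted p under 0.05 (limma, Benjamini-Hochberg over all genes tested) with a log2 difference of at least 1, and these are the genes called below. In GFP-negative cells 595 genes (9.02%) were higher and 898 (13.6%) were lower. The smallest adjusted p was 0.0108, which many genes shared. Groups of 2 libraries do not overlap for most genes in such a contrast: this held for 4279 of the tested genes (64.9%), and for all 1493 called ones. The calls rested on both ESC libraries, since without ESC replicate 1 or without ESC replicate 2 no gene was called (1324 and 1288 genes at an unadjusted p under 0.05, against 2583 with all 4 libraries), although all 1493 genes kept their sign. Without GFP-negative replicate 2 there were 2419 calls. The split between directions moved with the scaling: 60.1% of calls were lower in GFP-negative cells as deposited and 45% after quantile normalization, which moved the median difference over tested genes to -0.08 from -0.30.

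**Figure D1:**
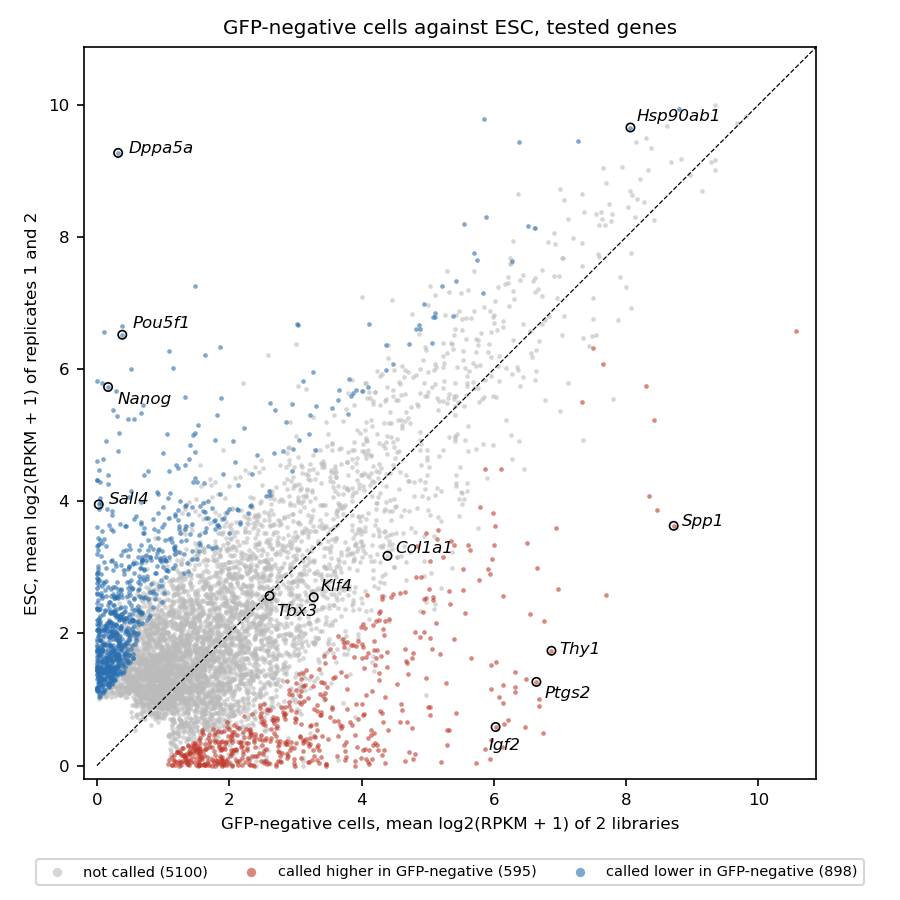
Mean log2(RPKM + 1) of each tested gene in GFP-negative cells (x axis, 2 libraries) against ESC (y axis, replicates 1 and 2), with the 595 genes called higher in GFP-negative cells in red, the 898 called lower in blue and the dashed line marking equal levels. The pluripotency genes Pou5f1, Nanog, Sall4 and Dppa5a lie along the upper left edge, Thy1, Ptgs2, Spp1 and Igf2 lie far below the line, and Klf4 and Tbx3 lie near it.

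Genes of the pluripotency network were low in GFP-negative cells. Of the 34 core and naive pluripotency genes in the table, 27 were called lower and 0 higher, beside the 13.6% of tested genes called lower. The other members comprised 4 that were tested and not called and 3 that were not tested. The median over the 34 genes was -3.35, against -0.04 over all genes in the table. Most of these genes, 26, entered the test only through their level in ESC, so the count describes the list and is not separate evidence.

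The core factors were all far below the ESC level in GFP-negative cells. Nanog, the homeobox factor of the naive state, was at 0.126 and 0.122 RPKM in GFP-negative cells, against 52.5 and 51.7 RPKM in ESC (log2 difference -5.56 ± 0.36, adjusted p = 0.0108). Sox2, the partner of Oct4 on DNA, was at 0.0368 and 0.631 RPKM in GFP-negative cells and at 105 and 93.6 RPKM in ESC (-6.27 ± 0.42). Sall4, a zinc finger factor of the network, was at 0.0092 and 0.0296 RPKM, about 2 and 6 estimated reads, in GFP-negative cells, against 13.6 and 15.4 RPKM in ESC (-3.92 ± 0.38, adjusted p = 0.0169). In each case both GFP-negative libraries lay far below both ESC libraries, and ESC replicate 3 (55.4, 90.0 and 14.6 RPKM for Nanog, Sox2 and Sall4) lay with the other ESC.

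No tested gene fell by more than Dppa5a, a marker of undifferentiated ESC, which was at 0.161 and 0.344 RPKM in GFP-negative cells and 691 and 552 RPKM in ESC (-8.95 ± 0.35). Utf1, a chromatin factor of undifferentiated cells, was listed at 0 in both GFP-negative libraries and was at 45.7 and 67.0 RPKM in ESC. Tdgf1, the co-receptor of Nodal, was at 0.0414 and 0.0739 RPKM in GFP-negative cells, against 55.4 and 53.6 RPKM in ESC. L1td1, an RNA-binding protein of pluripotent cells, stood at 0.400 and 0.453 RPKM against 70.0 and 56.7 RPKM. These 4 genes were called lower, and their levels were also at 0 in MEF replicates 1 and 2.

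Further factors that hold the naive state showed the same pattern. Zfp42 (Rex1) was at 0.0832 and 0.114 RPKM in GFP-negative cells and at 28.2 and 30.4 RPKM in ESC, with 4.80 RPKM in ESC replicate 3. Esrrb, an orphan nuclear receptor that can stand in for Nanog, was at 0.0411 and 0.0392 RPKM in GFP-negative cells, against 2.57 and 2.81 RPKM in ESC (-1.83 ± 0.22). Klf2 was at 0.0344 and 0.480 RPKM in GFP-negative cells, against 29.5 and 49.2 RPKM in ESC (-4.98 ± 0.46). For Klf2 the starting fibroblasts lay between both groups, at 9.93 and 12.4 RPKM in MEF replicates 1 and 2.

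The 4 uncalled members of the list did not separate the groups by this test. Tbx3, a T-box factor of naive ESC, was at 4.03 and 6.40 RPKM in GFP-negative cells and at 5.74 and 4.21 RPKM in ESC (0.04 ± 0.43), and its groups overlapped. Klf4 was at 22.9 and 2.94 RPKM in GFP-negative cells and at 9.02 and 2.42 RPKM in ESC (0.73 ± 1.04, adjusted p = 0.657). Klf5 was at 3.30 and 0.592 RPKM against 1.40 and 1.04 RPKM (0.24 ± 0.56). Eras, a Ras-like gene of ESC, was at 0.0209 and 5.36 RPKM in GFP-negative cells, with 2.45 and 1.28 RPKM in ESC lying between them. Errors of this size do not show that levels were equal, and without GFP-negative replicate 2 Eras would have been called lower (-1.46, adjusted p = 0.0466).

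**Figure D2:**
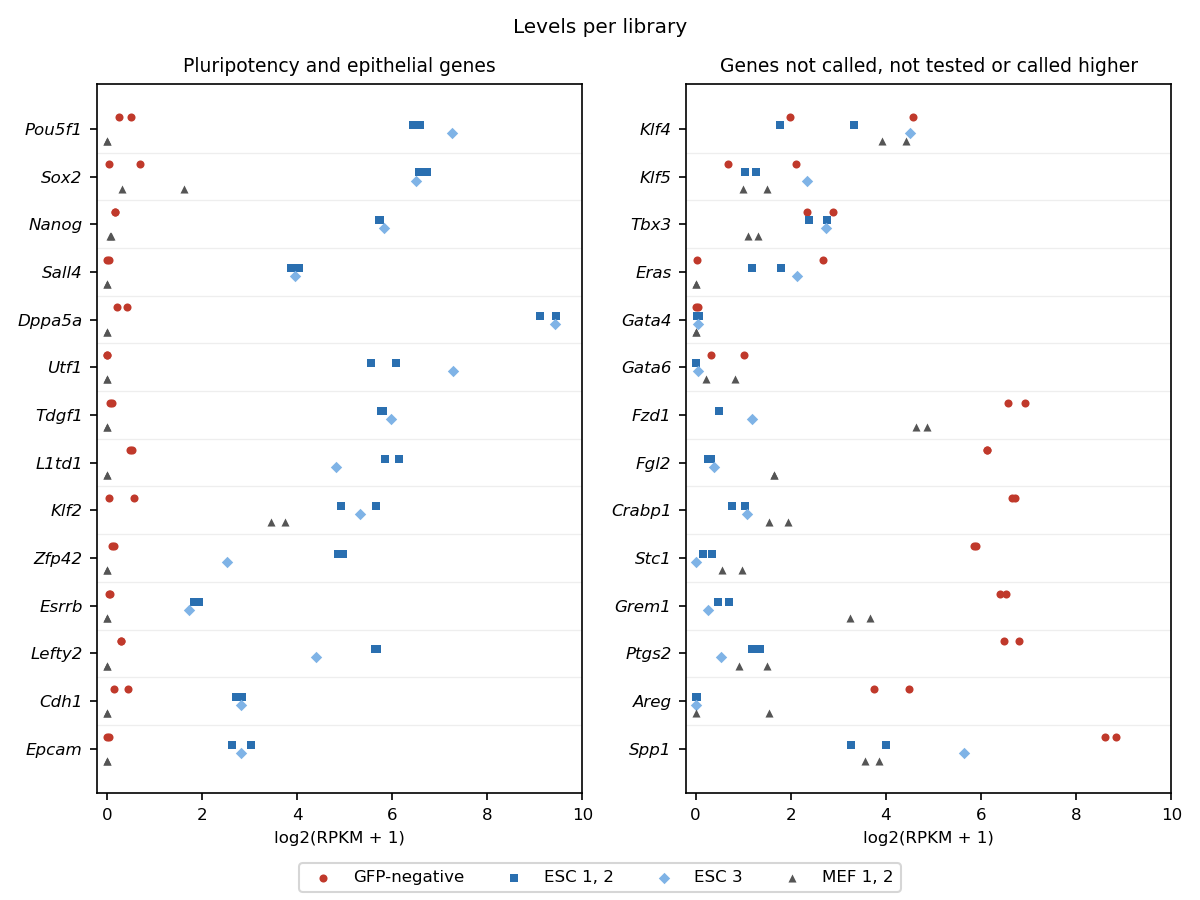
Level of each gene as log2(RPKM + 1) in every library: GFP-negative cells (red circles), ESC replicates 1 and 2 (blue squares), ESC replicate 3 (light diamonds) and MEF replicates 1 and 2 (grey triangles). Left, pluripotency and epithelial genes, where GFP-negative cells sit near 0 and below all ESC libraries; right, genes of the pluripotency list that were not called (Klf4, Klf5, Tbx3, Eras), Gata4 and Gata6, which were not tested, and genes called higher in GFP-negative cells.

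Because Oct4 and Sox2 act on their own target promoters, the promoter windows of 2 network genes are shown, each running from 250 bases before to 50 bases after the annotated start in RefSeq (build GRCm38.p6, while the reads had been aligned to mm9). Capitals mark TTTGCAT or its reverse complement, part of the octamer that POU factors such as Oct4 bind. The Nanog window is chr6:122707239-122707538, the Sox2 window is chr3:34649745-34650044, and both are on the plus strand.
Nanog: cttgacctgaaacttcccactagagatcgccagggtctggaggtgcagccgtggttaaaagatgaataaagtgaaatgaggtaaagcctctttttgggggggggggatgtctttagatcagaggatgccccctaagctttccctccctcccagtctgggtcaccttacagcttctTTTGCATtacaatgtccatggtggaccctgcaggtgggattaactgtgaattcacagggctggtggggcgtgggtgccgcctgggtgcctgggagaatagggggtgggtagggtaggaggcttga
Sox2: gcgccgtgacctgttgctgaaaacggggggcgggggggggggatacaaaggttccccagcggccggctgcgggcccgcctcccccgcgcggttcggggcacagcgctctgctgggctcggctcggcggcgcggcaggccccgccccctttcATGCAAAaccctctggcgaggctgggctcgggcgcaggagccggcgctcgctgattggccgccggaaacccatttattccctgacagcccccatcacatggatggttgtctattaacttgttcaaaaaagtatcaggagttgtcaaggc
The motif begins 75 bases before the start in Nanog and 99 bases before the start in Sox2. It was present, on either strand, in 3.20% of the windows of tested genes and in 4.63% of all 32851 windows of the table. Of the 27 pluripotency genes called lower, 18 had a window and 4 of these held the motif (Nanog, in 1 of its 2 windows, Sox2, Zfp296 and Zfp42). A match describes these letters and is not evidence of binding.

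Genes of the primed state that follows naive pluripotency in the embryo were low as well. Of 10 genes of the primed epiblast in the table, 6 were called lower and 0 higher, beside 13.6% of tested genes called lower. All 6 entered the test only through ESC. Lefty2, an inhibitor of Nodal, was at 0.226 RPKM in both GFP-negative libraries, against 49.0 and 50.4 RPKM in ESC (-5.37 ± 0.36). Nodal itself was listed at 0 and at 0.0263 RPKM in GFP-negative cells, against 10.2 and 9.62 RPKM in ESC (-3.43 ± 0.37). The methyltransferase gene Dnmt3b was at 0.514 and 0.582 RPKM against 8.47 and 8.73 RPKM. Otx2 was listed at 0 in both GFP-negative libraries and at 8.67 and 7.83 RPKM in ESC, but ESC replicate 3 stood at 0.470 RPKM, and the call was lost whenever that library was used.

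Genes of the 2-cell-like state, a rare state that a few ESC pass through, were lower too. Zscan4d was listed at 0 in both GFP-negative libraries and at 3.19 and 1.70 RPKM in ESC. All 4 tested members, of 5 in the table, were called lower, beside 13.6% of all tested genes. But all 4 passed the filter only through ESC. The count thus describes the list and is not separate evidence. Read assignment among near-identical Zscan4 copies is uncertain, and without either GFP-negative library Zscan4f (-1.60) and Zscan4c (-1.55) were not called. Tex19.1, a gene of the germline and of pluripotent cells, was the only one of 11 germline genes that was tested. It passed the filter only through ESC. Tex19.1 stood at 0 in both GFP-negative libraries and at 24.6 and 22.2 RPKM in ESC (-4.61 ± 0.38).

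Few genes of the epithelial list could be tested, and the called ones included adhesion genes that ESC share with epithelia. Cdh1, which encodes E-cadherin, was at 0.116 and 0.353 RPKM in GFP-negative cells, against 5.56 and 6.22 RPKM in ESC (-2.49 ± 0.37, adjusted p = 0.0178). Epcam, a further adhesion molecule, was at 0 and 0.0320 RPKM in GFP-negative cells, against 5.18 and 7.14 RPKM in ESC (-2.80 ± 0.36). The tight junction gene Cldn6 was listed at 0 in both GFP-negative libraries and at 5.76 and 3.03 RPKM in ESC. In all, 4 of the 24 epithelial genes in the table were called lower and 1 higher, with 17 under the level needed for testing and a median of -0.37. Beside the 13.6% of tested genes called lower, and with 5 of the 7 tested members passing only through their higher group, nothing is read from this count. The higher one, the keratin gene Krt18, was at 3.13 and 4.24 RPKM in GFP-negative cells and at 0.0592 and 0.715 RPKM in ESC. ESC replicate 3 stood at 8.40 RPKM for Krt18, and with it in place of the other ESC the difference turned to -1.02. Cldn4 differed between GFP-negative libraries (29.6 and 0 RPKM) by more than between the groups (16.6 and 12.9 RPKM in ESC), and it would have been called lower without GFP-negative replicate 1 (-3.97, adjusted p = 0.0134).

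Mesenchymal genes were far above the ESC level in GFP-negative cells. Of 22 fibroblast identity genes in the table, 16 were called higher and 0 lower, beside 9.02% of tested genes, and the median over the 22 was 2.21. Of the tested members, 12 passed the filter only through GFP-negative cells. Twist1, a mesenchymal transcription factor, was at 59.6 and 82.0 RPKM in GFP-negative cells, against 0.210 and 0.962 RPKM in ESC (5.52 ± 0.45, adjusted p = 0.0148). Col6a1, a chain of collagen VI, was at 23.4 and 31.2 RPKM in GFP-negative cells and at 0.0562 and 0.219 RPKM in ESC (4.63 ± 0.40). Col3a1, the chain of collagen III, was at 34.7 and 29.1 RPKM against 0.609 and 0.807 RPKM (4.27 ± 0.38). Sparc, a matrix protein that binds collagen, was at 85.8 and 55.8 RPKM against 5.04 and 4.80 RPKM (3.57 ± 0.39). All 4 had groups that did not overlap. In bulk RNA a smaller share of cells that express a gene and less RNA per cell cannot be told apart, here and for every gene below.

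Of 12 transition factors and mesenchymal cadherins in the table, 6 were tested, each only through its level in GFP-negative cells. All 6 were called higher (Twist1, Twist2, Snai2, Prrx1, Zeb2 and Cdh11), beside 9.02% of all tested genes. The count thus describes the list and is not separate evidence. Snai2 (Slug) was at 14.9 and 19.2 RPKM in GFP-negative cells, against 0.106 and 0.0466 RPKM in ESC (4.06 ± 0.39). Prrx1, a homeobox factor of mesenchyme, was at 11.0 and 6.17 RPKM against 0.195 and 0.262 RPKM. Twist2 was at 4.24 and 3.64 RPKM in GFP-negative cells and at 0.0194 and 0.0142 RPKM in ESC, and Zeb2 was at 3.66 and 2.67 RPKM against 0.152 and 0.140 RPKM. The 6 untested members were Snai1, Zeb1, Tcf4, Prrx2, Cdh2 and Foxc2, which did not reach 1 RPKM in 2 of the libraries.

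Other matrix and filament genes of fibroblasts did not pass the test between GFP-negative cells and ESC. Col1a1, the main chain of collagen I, was at 19 and 21 RPKM in GFP-negative cells and at 5.32 and 11.9 RPKM in ESC (1.22 ± 0.48, adjusted p = 0.135), and ESC replicate 3 was at 16.1 RPKM. In MEF replicates 1 and 2 Col1a1 was at 338 and 292 RPKM. Vim, the intermediate filament of mesenchymal cells, was at 22.8 and 39.0 RPKM against 12.9 and 7.81 RPKM (1.48 ± 0.47, adjusted p = 0.0832), with 169 and 156 RPKM in MEF. Lox, which crosslinks collagen, was at 27.0 and 12.5 RPKM against 8.47 and 9.48 RPKM, with 382 and 410 RPKM in MEF, and it was called higher without GFP-negative replicate 2 (1.49, adjusted p = 0.0363).

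TGF-beta target genes, many of them contractile or matrix genes, were divided. Of 19 in the table, 3 were called higher (Timp3, Tpm1 and Col4a1) and 0 lower, and 10 were tested and not called. Over all tested genes 9.02% were called higher. The median of the 19 was 0.73. Timp3, an inhibitor of matrix proteases, was at 8.94 and 9.49 RPKM in GFP-negative cells and at 0.246 and 0.111 RPKM in ESC (3.12 ± 0.38). Ctgf was at 1.42 and 11.2 RPKM in GFP-negative cells, below 25.2 and 17.1 RPKM in ESC (-2.0 ± 0.85, adjusted p = 0.154), and was called lower without GFP-negative replicate 2 (-3.17). Tagln, a protein of contractile filaments, was at 0.225 and 1.63 RPKM against 4.29 and 7.90 RPKM (-1.94 ± 0.57, adjusted p = 0.0696), and was likewise called without GFP-negative replicate 2 (-2.49). Acta2, smooth muscle actin, was at 1.97 and 9.68 RPKM against 5.68 and 6.85 RPKM. Thbs1 was at 38.7 and 50.4 RPKM against 12.8 and 21.3 RPKM (1.36 ± 0.42, adjusted p = 0.0768), and Cyr61 was at 18.4 and 60.9 RPKM against 6.21 and 3.10 RPKM (2.67 ± 0.69, adjusted p = 0.0519), a call that was made without GFP-negative replicate 1 (3.51, adjusted p = 0.0249).

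The summed level of the 19 TGF-beta target genes was 140 and 211 RPKM in GFP-negative cells and 89.7 and 98.1 RPKM in ESC, while MEF replicates 1 and 2 stood at 3070 and 3004 RPKM. For the 22 fibroblast identity genes the sums were 561 and 607 RPKM in GFP-negative cells and 54.0 and 58.0 RPKM in ESC, with 1679 and 1607 RPKM in MEF. ESC had been grown on MEF feeders, and the part of feeder RNA in the ESC values was not tested.

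**Figure D3:**
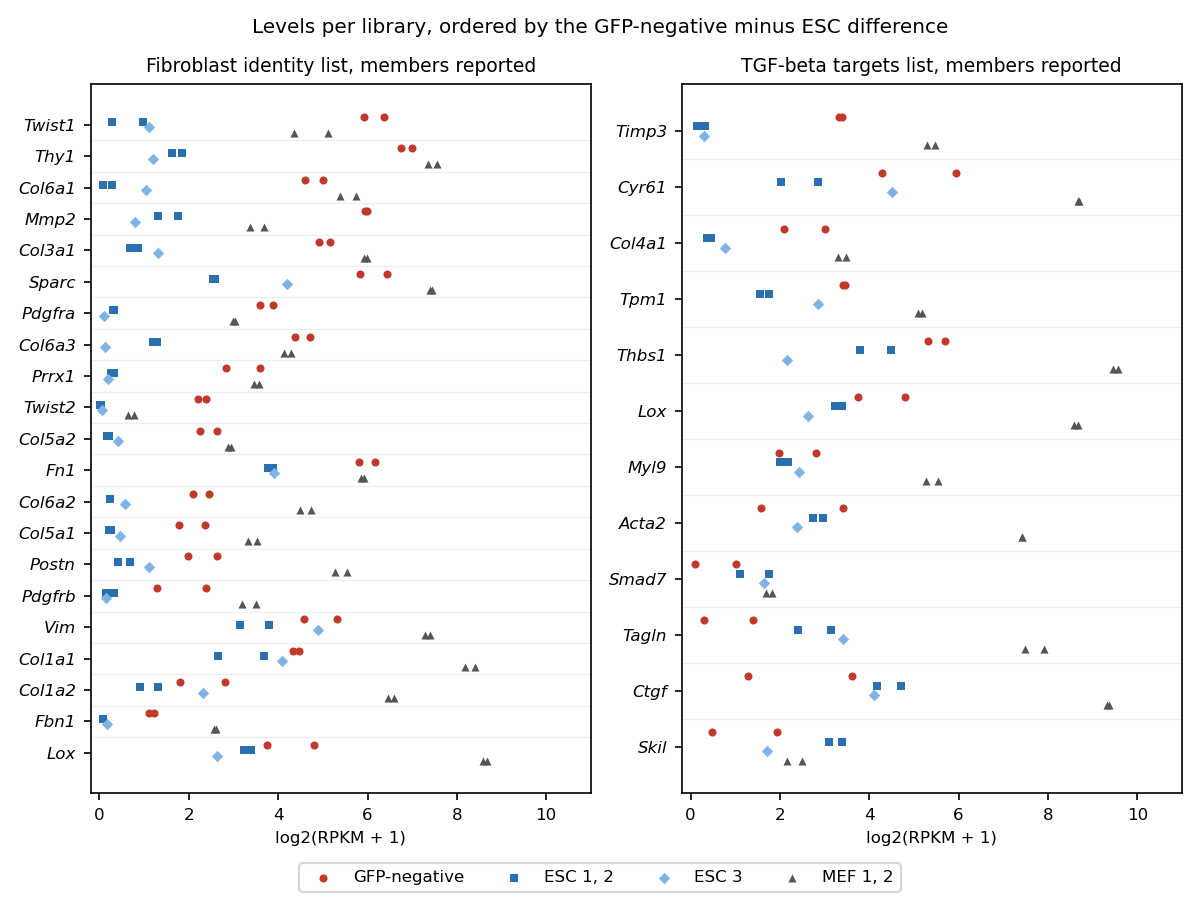
Levels as log2(RPKM + 1) of the tested members reported here of the fibroblast identity list (left) and the TGF-beta target list (right), ordered from the largest to the smallest GFP-negative minus ESC difference, in GFP-negative cells (red circles), ESC replicates 1 and 2 (blue squares), ESC replicate 3 (light diamonds) and MEF replicates 1 and 2 (grey triangles). Red points lie right of the blue ones for Twist1, Thy1, Col6a1 and Mmp2. Red and blue points lie far left of MEF for Col1a1, Lox, Acta2 and Tagln, with red left of blue for Tagln.

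Fzd1, a receptor for Wnt proteins, had the largest rise of any tested gene, at 120 and 94.3 RPKM in GFP-negative cells and 0.412 and 0.397 RPKM in ESC (6.25 ± 0.37, adjusted p = 0.0108), with 28.2 and 24.0 RPKM in MEF. Grem1, an extracellular antagonist of BMPs, was at 83.7 and 91.7 RPKM in GFP-negative cells, against 0.632 and 0.384 RPKM in ESC (5.88 ± 0.37). Fgl2, a fibrinogen-like protein, was at 68.8 and 69.0 RPKM against 0.197 and 0.245 RPKM. Thbs2, a matrix protein, was at 99.3 and 105 RPKM against 1.04 and 0.962 RPKM. For these 4 genes both GFP-negative libraries lay far above both ESC libraries.

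Crabp1, which binds retinoic acid in the cytoplasm, was at 105 and 99.0 RPKM in GFP-negative cells and at 1.06 and 0.701 RPKM in ESC (5.78 ± 0.36). In MEF replicates 1 and 2 Crabp1 stood at 1.90 and 2.82 RPKM. Stc1, a secreted glycoprotein, was at 56.5 and 58.8 RPKM in GFP-negative cells, against 0.120 and 0.276 RPKM in ESC (5.62 ± 0.37), with 0.470 and 0.959 RPKM in MEF. Cdc42ep2, an effector of the GTPase Cdc42, was at 44.3 and 60.8 RPKM against 0 and 0.0576 RPKM. For Crabp1 and Stc1 both GFP-negative libraries thus lay above every ESC and MEF library given here.

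Of 15 genes of prostaglandin and steroid synthesis in the table, 6 were called higher in GFP-negative cells and 0 lower, and 9 were not tested. Over all tested genes 9.02% were called higher, and 3 of the 6 passed the filter only through their higher group. The untested ones included Cyp11a1, which starts steroid synthesis, at 0.0075 and 0.0403 RPKM in GFP-negative cells and 0 and 0.0206 RPKM in ESC, and Ptgds, a prostaglandin D synthase, which was listed at 0 in all 4 libraries. Ptgs2, the inducible cyclooxygenase, was at 110 and 89.1 RPKM in GFP-negative cells, against 1.27 and 1.55 RPKM in ESC (5.38 ± 0.36, adjusted p = 0.0108), and at 0.877 and 1.84 RPKM in MEF. Ptgs1, the constitutive cyclooxygenase, was at 24.1 and 14.6 RPKM in GFP-negative cells, against 0.0310 and 0.215 RPKM in ESC (4.14 ± 0.44). Ptges, which makes prostaglandin E from the cyclooxygenase product, was at 13.8 and 14.8 RPKM against 0.190 and 0.233 RPKM (3.66 ± 0.38). For these 3 genes both GFP-negative libraries lay above both ESC libraries.

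Akr1c18, an enzyme that inactivates progesterone, was at 4.69 and 5.65 RPKM in GFP-negative cells and at 0.283 and 0.307 RPKM in ESC. Cyp1b1, a cytochrome P450 that oxidises steroids, was at 36.5 and 58.2 RPKM against 4.56 and 3.46 RPKM (3.24 ± 0.42), and MEF were at a like level (54.4 and 48.8 RPKM). Star, which carries cholesterol into mitochondria, was at 12.5 and 12.7 RPKM in GFP-negative cells and at 3.02 and 0.616 RPKM in ESC (2.41 ± 0.56, adjusted p = 0.0405). The call of Star was lost without either GFP-negative library (2.43, adjusted p = 0.0736, and 2.40, adjusted p = 0.0643).

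Signals such as that of forskolin act through cAMP and the factor CREB, and genes known as cAMP targets were examined as a group. Of 17 in the table, 6 were called higher, 1 lower (Sik1) and 4 not, with 6 not tested, and the median over the 17 was 1.3. Over all tested genes 9.02% were called higher and 13.6% lower. Of the tested members, 5 passed the filter only through their higher group. Areg, a ligand of the EGF receptor, was at 21.3 and 12.4 RPKM in GFP-negative cells, against 0.0256 and 0 RPKM in ESC (4.09 ± 0.45). Fos, an immediate early transcription factor, was at 27.0 and 20.4 RPKM against 1.69 and 0.195 RPKM (3.77 ± 0.54), with 41.6 and 37.0 RPKM in MEF. Dusp1, a phosphatase of MAP kinases, was at 45.0 and 44.9 RPKM against 13.2 and 20.7 RPKM (1.39 ± 0.38, adjusted p = 0.0606) and was not called. Sik1 was at 0.196 and 0.537 RPKM in GFP-negative cells and at 3.77 and 2.59 RPKM in ESC (-1.61), and it was not called without GFP-negative replicate 1 (-1.43, adjusted p = 0.0651). The list holds both genes that were low and genes that were high in MEF, and many of them also respond to serum and growth factors.

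The promoter windows of 3 cAMP targets called higher are printed to show where the CREB half-site lies in them. Capitals mark CGTCA or its reverse complement TGACG, and in Areg they also mark the full palindromic site TGACGTCA. The windows are chr1:150099781-150100080 (Ptgs2), chr5:91139349-91139648 (Areg) and chr12:85473640-85473939 (Fos), all on the plus strand, from RefSeq (GRCm38.p6).
Ptgs2: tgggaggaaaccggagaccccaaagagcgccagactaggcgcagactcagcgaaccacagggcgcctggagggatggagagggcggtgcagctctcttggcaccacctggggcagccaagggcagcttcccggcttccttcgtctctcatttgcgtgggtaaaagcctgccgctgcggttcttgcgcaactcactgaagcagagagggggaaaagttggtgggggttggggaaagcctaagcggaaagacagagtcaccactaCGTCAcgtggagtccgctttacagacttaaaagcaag
Areg: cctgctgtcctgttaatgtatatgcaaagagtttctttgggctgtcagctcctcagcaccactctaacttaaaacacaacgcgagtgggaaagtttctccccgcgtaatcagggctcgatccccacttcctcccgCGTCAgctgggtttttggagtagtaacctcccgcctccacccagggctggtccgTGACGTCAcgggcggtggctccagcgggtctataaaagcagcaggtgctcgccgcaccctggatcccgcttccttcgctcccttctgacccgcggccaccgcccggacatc
Fos: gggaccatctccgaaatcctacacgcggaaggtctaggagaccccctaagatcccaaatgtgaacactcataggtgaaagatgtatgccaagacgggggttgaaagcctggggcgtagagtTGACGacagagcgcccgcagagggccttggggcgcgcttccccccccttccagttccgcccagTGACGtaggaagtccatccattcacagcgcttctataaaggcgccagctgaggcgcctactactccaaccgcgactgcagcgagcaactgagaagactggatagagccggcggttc
The half-site begins 13 bases after the start in Ptgs2, 115, 61 and 58 bases before it in Areg, and 129 and 66 bases before it in Fos. All 5 of the cAMP targets called higher that had a window held the half-site (Areg, Fos, Fosb, Junb and Ptgs2). But so did 13 of the 14 cAMP list genes with a window, called or not. It was, however, also present in 33.8% of the windows of tested genes, 27.6% of those of genes called higher and 29.6% of those of genes called lower. Over all genes called higher it was thus no more frequent than among tested genes, and the full site was in 2.67% against 3.44% of windows.

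Wnt target genes, whose pathway GSK3 restrains, were mostly not called. Of 16 in the table, 1 was called higher (Apcdd1) and 0 lower, and 6 were tested and not called, beside 9.02% of all tested genes called higher. Apcdd1, an inhibitor of Wnt signalling, was at 3.90 and 2.0 RPKM in GFP-negative cells and at 0.0877 and 0.292 RPKM in ESC (1.69 ± 0.35). Ccnd1, which encodes cyclin D1, was at 13.8 and 18.5 RPKM against 20.5 and 19.5 RPKM (-0.31 ± 0.37). Axin2 and Lef1 were not tested, since they did not reach 1 RPKM in 2 libraries.

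Of 17 secreted inflammatory and growth factors in the table, 12 were tested, with 8 called higher in GFP-negative cells and 0 lower. Over all tested genes 9.02% were called higher, and 4 of the 12 passed the filter only through their higher group. Il33, an alarm cytokine, was at 17.7 and 7.22 RPKM in GFP-negative cells and at 0.146 and 0.0603 RPKM in ESC (3.49 ± 0.54), and was near 0 in MEF (0.0237 and 0.0807 RPKM). Csf1, the growth factor of macrophages, was at 20.3 and 18.7 RPKM against 3.19 and 3.92 RPKM (2.17 ± 0.37). Fst, which binds activin, was at 15.8 and 18 RPKM against 1.01 and 1.36 RPKM (3.04 ± 0.38). Spp1 had the highest level of the list, and its difference was 5.09 ± 0.39 (adjusted p = 0.0132). ESC replicate 3 had more Spp1 than the other ESC, at 49.1 RPKM, and still lay far below both GFP-negative libraries.

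Proteases that act on the matrix, and their inhibitors, were mostly higher in GFP-negative cells. Of 19 in the table, 15 were tested, with 12 called higher and 1 lower (Mmp11), and the median over the 19 was 2.62. Over all tested genes 9.02% were called higher. Of those tested, 7 passed the filter only through GFP-negative cells. Mmp2, a gelatinase, was at 60.2 and 62.4 RPKM in GFP-negative cells and at 1.47 and 2.36 RPKM in ESC (4.43 ± 0.38), above 9.27 and 11.9 RPKM in MEF. Ctsl, a lysosomal and secreted protease, was at 383 and 277 RPKM against 19.7 and 12.8 RPKM (4.28 ± 0.39), with 35.9 and 44.9 RPKM in MEF. Mmp3, stromelysin, was at 69.5 and 20.9 RPKM in GFP-negative cells, a gap between replicates, and at 0.489 and 0.407 RPKM in ESC (4.76 ± 0.65). The inhibitor Timp1 was at 77.6 and 80.0 RPKM against 1.99 and 0.578 RPKM (5.20 ± 0.46).

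Genes of the insulin-like growth factor axis were called in both directions: Igf2, Igf2r, Igfbp3, Igfbp4 and Igfbp5 were higher in GFP-negative cells, and Igfbp2 and Igf2bp1 were lower. Igf2, the fetal growth factor, was at 68.7 and 60.1 RPKM in GFP-negative cells, against 0.365 and 0.643 RPKM in ESC (5.44 ± 0.37), and at 286 and 291 RPKM in MEF. H19, the noncoding RNA beside Igf2, was at 89.9 and 49.2 RPKM against 1.41 and 0.758 RPKM (5.04 ± 0.47), with 1349 and 1343 RPKM in MEF. The binding protein genes Igfbp4 (71.2 and 52.1 RPKM against 0.481 and 0.145 RPKM) and Igfbp5 (77.4 and 69.3 RPKM against 0.723 and 0.521 RPKM) rose. Igf2bp1, which binds Igf2 mRNA, was at 0.694 and 0.290 RPKM in GFP-negative cells and at 12.2 and 12.3 RPKM in ESC (-3.16 ± 0.40). Of the 13 genes of the axis in the table, 5 were called higher and 2 lower, and the other 6 were not tested. Over all tested genes 9.02% were called higher and 13.6% lower. Of the tested members, 5 passed the filter only through their higher group. Igfbp3 was not called without GFP-negative replicate 2 (2.88, adjusted p = 0.0561).

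Genes of DNA replication and mitosis were lower in GFP-negative cells. Of 32 in the table, 30 were tested, with 14 called lower and 0 higher, beside 13.6% of all tested genes called lower. Of those tested, 7 passed the filter only through their higher group. The median over the 32 was -1.85. Mcm4, a subunit of the replicative helicase, was at 0.555 and 0.624 RPKM in GFP-negative cells, against 14.2 and 15.4 RPKM in ESC (-3.31 ± 0.38, adjusted p = 0.0169), with 10.6 and 11.9 RPKM in MEF. Mcm7, a further subunit, was at 0.898 and 1.75 RPKM against 21.2 and 23.4 RPKM (-3.35 ± 0.41). Birc5 (survivin), which acts in mitosis, was at 0.0139 and 0.387 RPKM against 14.3 and 8.01 RPKM (-3.31 ± 0.47). Pcna, the sliding clamp, was at 12 and 15 RPKM against 43.3 and 51.8 RPKM (-1.75 ± 0.36).

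Both GFP-negative libraries differed from each other in these genes. Of the 30 tested, 18 differed at least 2-fold between the GFP-negative libraries, against 3 between ESC replicates, and 20 were higher in replicate 2, as were 57.7% of all tested genes. Top2a, a topoisomerase of dividing cells, was at 0.240 and 4.50 RPKM in GFP-negative cells and at 16.5 and 13.5 RPKM in ESC (-2.61 ± 0.79, adjusted p = 0.0741). Aurkb, a mitotic kinase, was at 0.135 and 11.4 RPKM in GFP-negative cells, with 10.6 and 10.4 RPKM in ESC in between (-1.62 ± 1.17). Top2a was called lower without either GFP-negative library (-1.53, adjusted p = 0.0492, without replicate 1 and -3.68, adjusted p = 0.0176, without replicate 2), and Aurkb without replicate 2 (-3.34, adjusted p = 0.0182). Without GFP-negative replicate 1 the list had 18 members called lower, and without replicate 2 it had 21.

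**Figure D4:**
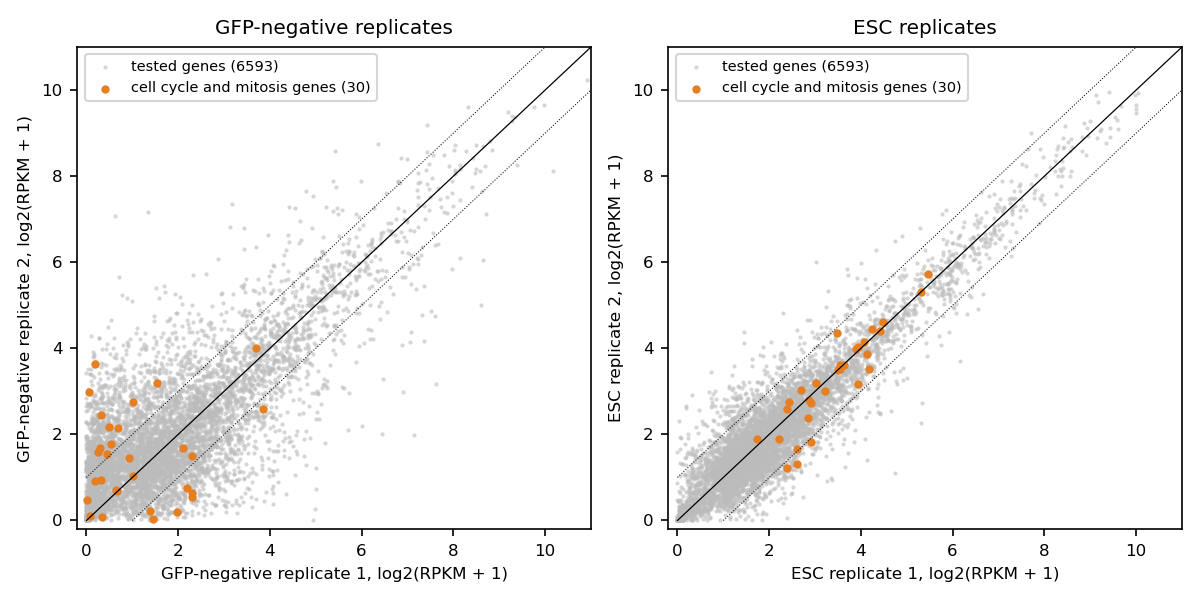
Replicate 1 (x axis) against replicate 2 (y axis), as log2(RPKM + 1) of tested genes, for GFP-negative cells (left) and ESC (right), with the 30 tested cell cycle and mitosis genes in orange, the solid line at equal levels and dotted lines at a 2-fold difference. The grey cloud is wider for GFP-negative cells, where 30.6% of genes lie outside the dotted lines, than for ESC, where 8.22% do.

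Cdkn1a, the p21 inhibitor of the cell cycle, was at 59.5 and 49.9 RPKM in GFP-negative cells and at 18.4 and 10.7 RPKM in ESC (1.89 ± 0.41, adjusted p = 0.0355), and it was not called without GFP-negative replicate 1 (1.76, adjusted p = 0.0616). Lmnb1, which encodes lamin B1 of the nuclear envelope, was at 0.542 and 0.707 RPKM against 5.66 and 6.87 RPKM (-2.16 ± 0.38). Of the 16 senescence and p53 target genes in the table, 12 were tested. Only Cdkn1a was called higher, while Lmnb1 and Trp53inp1 were called lower, beside 9.02% and 13.6% of all tested genes. Cdkn2a (1.99 and 7.55 RPKM against 0.0633 and 0.131 RPKM, 2.20) and Cdkn2b (23.7 and 6.04 RPKM against 2.33 and 0.104 RPKM, 2.78) were not called, although their groups did not overlap. Both GFP-negative libraries lay above both ESC libraries in 6 of the 16 genes and below both in 5. Groups did not overlap in 64.9% of all tested genes, so nothing is read from this count.

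Several chromatin regulators of ESC were lower. Tet1, which oxidises methylated cytosine, was at 0.0203 and 0.0180 RPKM in GFP-negative cells and at 8.62 and 9.94 RPKM in ESC (-3.33 ± 0.37). Dnmt3l, the cofactor of the de novo methyltransferases, was at 0.179 and 0.107 RPKM against 4.39 and 3.67 RPKM (-2.13 ± 0.31). Eed, a subunit of the polycomb complex that methylates histone H3, was at 0.130 and 0.162 RPKM against 2.94 and 3.22 RPKM (-1.83 ± 0.26). Kdm5b, a histone demethylase, was at 0.723 and 0.419 RPKM against 6.25 and 5.28 RPKM. Of 13 DNA methylation genes in the table, 9 were tested and 5 called lower, beside 13.6% of all tested genes. Of 24 polycomb and histone demethylase genes, 17 were tested, with 7 called lower and 10 not called. None of either list was called higher. In these 2 lists 5 and 10 of the tested members passed the filter only through their higher group.

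Kdm1a was at 0.140 and 0.393 RPKM in GFP-negative cells, against 2.87 and 2.58 RPKM in ESC (-1.56 ± 0.28, adjusted p = 0.0235). Of 11 histone deacetylase genes in the table, 5 were tested and 1 was called, beside 13.6% of all tested genes called lower. That gene was Sirt1, which was lower (0.0173 and 0.0803 RPKM against 1.60 and 1.03 RPKM). Hdac6, for comparison, was at 1.70 and 2.03 RPKM against 3.07 and 3.12 RPKM (-0.52 ± 0.38).

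Among metabolic genes, several called ones were lower in GFP-negative cells. Tdh, the threonine dehydrogenase on which mouse ESC depend, was at 0.156 and 0.0925 RPKM in GFP-negative cells and at 18.5 and 21.7 RPKM in ESC (-4.22 ± 0.38). Slc2a3, a glucose transporter, was at 0.117 and 0.756 RPKM against 15.7 and 15.9 RPKM (-3.58 ± 0.43). Shmt1, of one-carbon metabolism, was at 0.0509 and 0.218 RPKM against 3.53 and 3.69 RPKM. Of 18 amino acid and one-carbon genes in the table, 15 were tested, with 6 called lower and 0 higher, beside 13.6% of all tested genes. Of those tested, 7 passed the filter only through their higher group. None of 21 tested respiratory chain genes and none of 16 tested genes of cholesterol synthesis was called, but without GFP-negative replicate 2 the respiratory chain had 6 lower and 1 higher and cholesterol synthesis had 1 in each direction. Atp5b, a subunit of ATP synthase, was at 94.7 and 106 RPKM in GFP-negative cells and at 157 and 138 RPKM in ESC (-0.55 ± 0.30, adjusted p = 0.251). Of 17 tested glycolysis genes, 3 were called lower (Slc2a1, Slc2a3 and Pdk1), a share near the 13.6% of all tested genes, and without GFP-negative replicate 2 there were 6. Aldoa was at 67.7 and 70.9 RPKM against 93.0 and 119 RPKM (-0.59 ± 0.32).

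Few ribosomal protein and chaperone genes were called. Of 25 ribosomal protein genes, 1 was called lower, beside 13.6% of all tested genes. Their median was -0.94, below the median of -0.30 over tested genes. Without GFP-negative replicate 2, 8 were called. Both cytosolic Hsp90 genes were lower: Hsp90aa1 was at 46.1 and 38.5 RPKM in GFP-negative cells and at 164 and 156 RPKM in ESC (-1.90 ± 0.31), and Hsp90ab1 was at 261 and 273 RPKM against 819 and 794 RPKM (-1.59 ± 0.26). Of 17 heat shock and chaperone genes in the table, 3 were called lower and 2 higher, near the 13.6% and 9.02% of all tested genes. Serpinh1, the collagen chaperone, was higher, at 27.4 and 35.7 RPKM against 4.38 and 6.61 RPKM (2.33 ± 0.40).

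Antigen presentation genes of major histocompatibility complex class I, which ESC express at low levels, were higher in GFP-negative cells. B2m, the light chain, was at 27.8 and 31.2 RPKM in GFP-negative cells, against 3.66 and 4.38 RPKM in ESC (2.60 ± 0.36, adjusted p = 0.0173), and at 104 and 102 RPKM in MEF. The heavy chain gene H2-K1 was at 21.1 and 24.9 RPKM against 1.13 and 0.172 RPKM (3.92 ± 0.47), and H2-T23 was at 15.4 and 19.7 RPKM against 0.0828 and 0.485 RPKM (3.86 ± 0.42). Class I genes are polymorphic between strains and share sequence, so the share of reads assigned to each is uncertain. Of 24 interferon and antigen presentation genes in the table, 10 were tested, with 5 called higher and 1 lower, beside 9.02% and 13.6% of all tested genes. Of those tested, 3 passed the filter only through their higher group.

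Among 24 basement membrane and integrin genes in the table, 12 were tested, with 5 called higher and 1 lower, beside 9.02% and 13.6% of all tested genes. Of those tested, 6 passed the filter only through their higher group. Nid1, a linker protein of basement membranes, was at 30.0 and 34.0 RPKM in GFP-negative cells and at 0.903 and 0.799 RPKM in ESC (4.15 ± 0.37), above 10.9 and 11.0 RPKM in MEF. The integrin chain Itgb1 was at 20.1 and 16.4 RPKM against 4.63 and 3.33 RPKM (1.96 ± 0.39). The call of Nid2, lower, was lost without either GFP-negative library (-1.62, adjusted p = 0.072, and -1.67, adjusted p = 0.0556).

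Of 21 imprinted genes in the table, 11 were tested and 5 of those were called, beside 22.6% of all tested genes. Of those tested, 2 passed the filter only through their higher group. Besides Igf2, H19 and Igf2r, which were higher, Mest and Impact were lower. Mest was at 0.116 and 0.0894 RPKM in GFP-negative cells and 7.48 and 4.69 RPKM in ESC (-2.66 ± 0.39). Peg10 was at 12.1 and 8.0 RPKM against 18.4 and 27.9 RPKM and was not called. Hox genes, which record the body position of fibroblasts, were mostly under the level needed for testing. Hoxb9 alone was called, at 1.37 and 1.88 RPKM in GFP-negative cells and 0.0739 and 0.211 RPKM in ESC, with 1.20 RPKM in ESC replicate 3, and that call was lost whenever ESC replicate 3 was used.

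Gata4 and Gata6, markers of extraembryonic endoderm that later stages of chemical reprogramming pass through, were both under the level needed for testing. Gata4 was at 0.0012 and 0.0426 RPKM in GFP-negative cells and at 0.0227 and 0.0431 RPKM in ESC, and its groups overlapped. Gata6 was at 0.243 and 1.02 RPKM in GFP-negative cells, against 0.0068 and 0.0075 RPKM in ESC, and at 0.774 and 0.167 RPKM in MEF. Of 11 extraembryonic endoderm genes in the table, 5 were tested and all 5 were called higher, beside 9.02% of all tested genes. The filter was passed only through GFP-negative cells by 4 of the 5. Apart from that, 4 of the 5 (Pdgfra, Sparc, Col4a1 and Col4a2) are also fibroblast or basement membrane genes. The 5th was Foxa2, at 2.08 and 5.25 RPKM in GFP-negative cells and 0.0180 and 0 RPKM in ESC (2.12 ± 0.41), with 0 and 0.0135 RPKM in MEF.

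Markers of other cell types that a culture could hold were mostly near 0. For macrophages and blood, 1 of 7 genes was called higher, Cd14, at 69.3 and 52.3 RPKM in GFP-negative cells and 0.0452 and 0.0994 RPKM in ESC (5.84 ± 0.39), while the defining macrophage genes were low: Lyz2 at 0 and 0.0194 RPKM and Csf1r at 0.0102 and 0.0838 RPKM in GFP-negative cells. The summed level of the 7 genes was 69.6 and 53.9 RPKM in GFP-negative cells and 3.51 and 3.46 RPKM in ESC. Nearly all of the sum in GFP-negative cells was Cd14, so it does not describe the other members. Only 2 of the 7 were tested, and 9.02% of all tested genes were called higher. Of 7 endothelial and 9 muscle genes none was tested. Krt5, of basal keratinocytes, was at 6.34 and 4.79 RPKM in GFP-negative cells and at 0 in both ESC libraries, with 0.029 RPKM in both MEF. Nes, of neural precursors and many cultured cells, was at 17.4 and 39.9 RPKM against 2.90 and 1.74 RPKM, with 10.0 and 9.90 RPKM in MEF. Lpl, of adipocytes, was at 6.14 and 6.53 RPKM against 0.324 and 0.184 RPKM. In MEF replicates 1 and 2 Lpl was higher, at 30.6 and 29.5 RPKM. Krt5, Nes and Lpl were the only calls in the keratinocyte, neural, and adipocyte and cartilage lists, whose part in the other results was not tested. Of the 6 trophoblast genes in the table, only Eomes was tested, and it was not called.

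**Figure D5:**
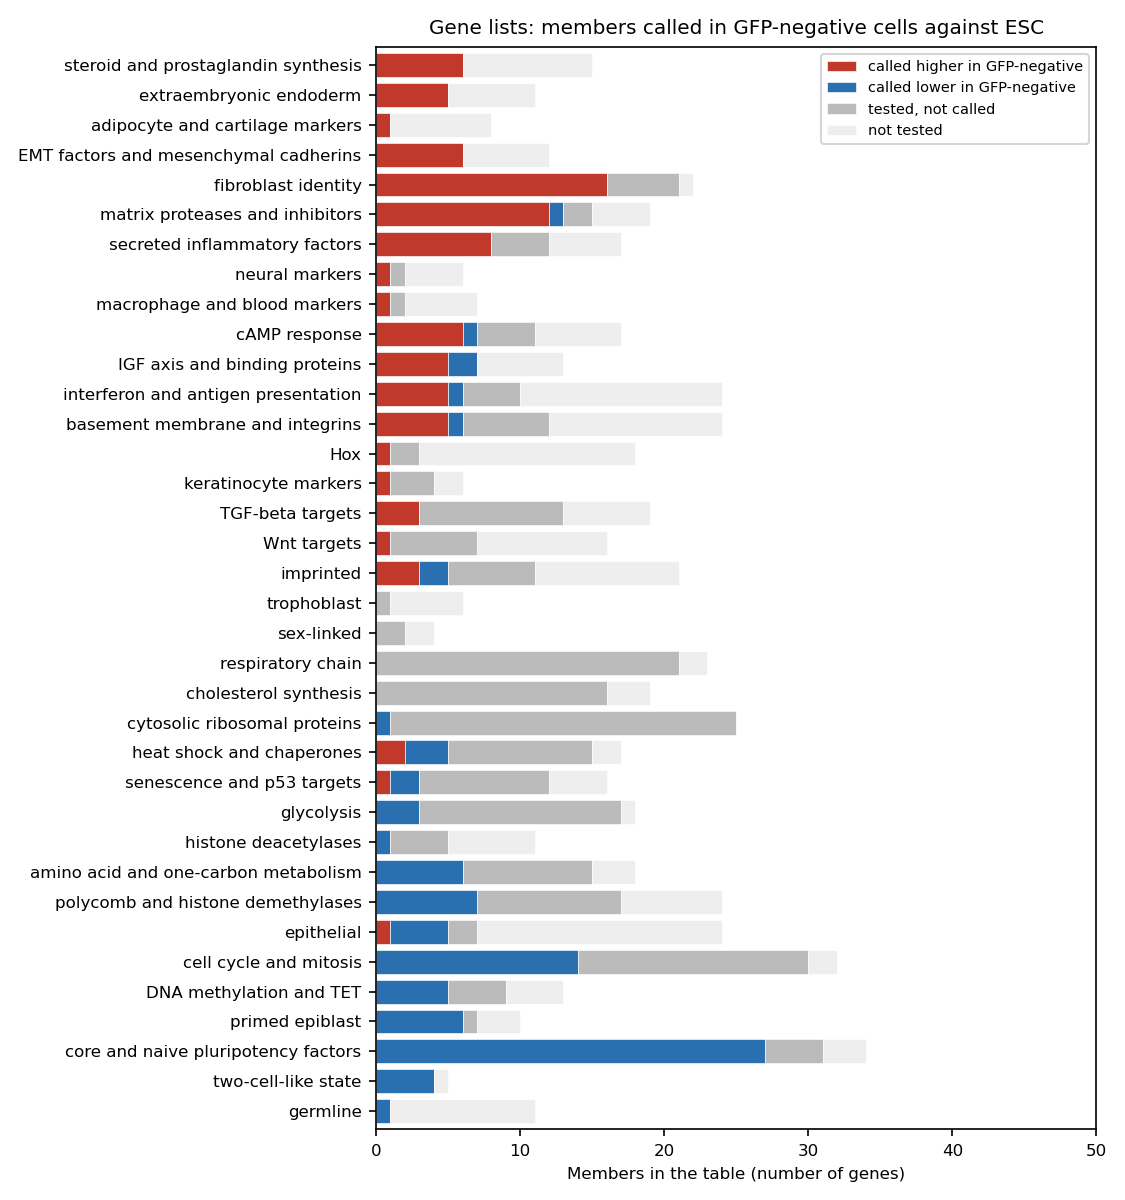
Members of each gene list that are in the table (bar length, number of genes), divided into those called higher in GFP-negative cells (red), called lower (blue), tested and not called (grey) and not tested (light grey), for the lists with a tested member. Red dominates the fibroblast identity (16 of 22) and matrix protease (12 of 19) bars near the top, and blue dominates the pluripotency bar (27 of 34) near the bottom.

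Apart from the pluripotency genes, the largest falls the rule named included Trh, the precursor of thyrotropin-releasing hormone, at 0.0698 and 0.0748 RPKM in GFP-negative cells and 95.7 and 91.7 RPKM in ESC (-6.46 ± 0.36), with 13.6 RPKM in ESC replicate 3. Gm12471 was at 2.11 and 1.5 RPKM in GFP-negative cells and at 157 and 147 RPKM in ESC, but at 0.001 RPKM in ESC replicate 3, where the direction turned (1.48). Rpl10l and Gm3470, which have near-identical copies elsewhere in the genome, were also among the largest falls, and their values are uncertain for that reason. The genes with the highest levels and no separation by value included Tcp1, a chaperonin subunit (622 and 618 RPKM in GFP-negative cells, 595 and 526 RPKM in ESC, 0.15 ± 0.26). Tcp1 was at 57.7 RPKM in ESC replicate 3 and at 51.6 and 54.7 RPKM in MEF.

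ESC replicate 3 belongs to another set of libraries, with 0.001 in place of 0 and a higher summed RPKM (142311, against 80708 and 80062 in ESC replicates 1 and 2). Set beside the GFP-negative libraries, it lay below both of them in 583 of the 595 genes called higher (98.0%) and above both in 895 of the 898 called lower (99.7%). Over all tested genes it lay below both in 26.9% and above both in 51.8%, and the called genes had been chosen with the same GFP-negative libraries. With median-ratio scaling these counts were 584 and 895. A difference of at least 1 on the log2 scale, in the same direction, was present in 536 of the genes called higher and 771 of those called lower. ESC replicate 3 also took the place of the other ESC in a fit to which MEF replicates 1 and 2 were added. The single ESC library gave no spread, which came from the GFP-negative and MEF pairs, so the ESC library and the spread changed together. Genes named above that were no longer called in that fit included Col4a1, Tpm1, Junb, Fosb, Apcdd1, Mmp11, Cdkn1a, Trp53inp1, Pdk1, Foxa2, Serpinh1 and Pcna, all of which kept their sign.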

How the data were processed

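RNA sequencing values of 13 libraries were deposited by the authors in 1 table with an RPKM column for each, as its header shows. Per the submitters' processing notes, alignment used TopHat 1.3.0 and build mm9. How reads were counted, and over which annotation, was not given in the sources used here. Of 15184 rows, 8 that shared 1 symbol were left out (15176 genes). Gene spans from GENCODE M21 (14989 genes, 98.8%) showed that in the libraries compared RPKM times span gave whole multiples of 1 step for 83.0 to 84.7% of low values (tolerance 0.05 steps), from which depth and reads per gene were estimated.

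The filter kept genes that reached 1 RPKM in 2 or more of the 4 libraries; these were tested on log2(RPKM + 1) with limma 3.58.1 (R 4.3.3, trend in the prior variance, 2 residual degrees of freedom, prior of 2.85), Benjamini-Hochberg over all tested genes. The fit was tested on simulated data. Groups follow the labels. Alternatives changed the pseudocount, filter, length scale, scaling, libraries in the fit, variance trend and replicate block. Where ESC replicate 3 stood in place of the other ESC, MEF replicates 1 and 2 were also in the fit. The spread then came from the GFP-negative and MEF pairs only.

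The members, the 38 lists and the tests were chosen with earlier results of these data known. Named genes were 11 fixed ones, up to 12 largest calls per direction at 10 RPKM or more, up to 6 called members per direction and 3 uncalled ones per list, 5 highest genes within 0.25 log2 and 5 with the largest gap between GFP-negative libraries; other list members were named after their values were seen. Some items are not reported here.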

Additional observations from a re-analysis of the deposited data

How the results depend on the processing

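All 1493 called genes kept their direction under every alternative that tested them, except with ESC replicate 3 in place of ESC replicates 1 and 2 (1481 kept it as deposited, 1479 with median-ratio scaling). The number of calls moved more. Without a filter on low values limma called 0 genes (3898 at an unadjusted p under 0.05, smallest adjusted p 0.0562, 15176 genes tested). With a filter at 5 RPKM it called 720 of 2147 genes, 345 higher and 375 lower in GFP-negative cells. Leaving out 1 library at a time gave 0 to 2419 calls, 0 to 891 higher and 0 to 1528 lower; both 0 values came from leaving out an ESC library (smallest adjusted p 0.0671 and 0.0783). ESC replicate 3 in place gave 343 higher genes as deposited, and with median-ratio scaling 978 calls, 351 higher. Without the trend in the prior variance 593 genes were lower. Quantile normalization gave 760 higher and 622 lower. ESC replicate 3 in place turned the direction of Gm12471 (1.48 as deposited, 1.51 scaled) and Krt18 (-1.02 as deposited, -0.78 scaled). The cause of these changes was not tested. The 2 settings that combine ESC replicate 3 with median-ratio scaling were chosen after seeing the data.

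Replicate numbers did not pair the libraries by any label, and same-numbered libraries deviated together only weakly (correlation 0.1031, 2 pairs); with the replicate number as a block 1596 genes were called, 646 higher and 950 lower. Of the named genes, 132 lost their call without the filter and without either ESC library, 13 without GFP-negative replicate 1 and 6 without replicate 2, and 27 with ESC replicate 3 in place. Depth limits the low values: Pou5f1 rests on about 10 and 21 estimated reads in GFP-negative cells, and genes under 1 RPKM per gene span, most often long ones (median span 33.2 kb, against 15.9 kb in tested genes), were not tested.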
